A study of Arabidopsis thaliana with 8 samples.

Results

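Plants that run short of phosphate switch on a set of genes through the transcription factor PHR1. Proteins with an SPX domain hold PHR1 back while phosphate is plentiful, and when it runs low phosphate transporters and secreted phosphatases are made. In leaves the same programme replaces membrane phospholipids with galactolipids and sulfolipid, which contain no phosphate. The 10 genes described here are widely used markers of that programme, chosen by name: the regulators SPX1, SPX2 and SPX3, the transporter genes PHT1;4 and PHO1;H1, the sulfolipid genes SQD1 and SQD2, the galactolipid genes MGD2 and MGD3, and the acid phosphatase gene PAP17. They are 10 of 38088 gene identifiers in the deposited values.

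Rosette leaf RNA of Arabidopsis thaliana ecotype Col0 was sequenced in 4 groups of 2 libraries, and no group was starved of phosphate per the labels. Copper-deficient plants had no copper sulfate and 10 µM of the copper chelator bathocuproine disulfonate, iron-deficient plants had no FeEDTA, doubly deficient plants lacked both metals with the same chelator, and controls stayed on the full medium with 1 µM copper sulfate. All plants had 12 d on soil and 10 d in diluted Hoagland solution before 10 d of treatment, and leaves were taken 4 h after light onset. An age of 20 d in the labels is shorter than these periods added together. Nothing says that replicate libraries are from separate plants or cultures, so p-values measure the spread between these libraries, which may be technical.

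Values are FPKM, fragments scaled to transcript length and to the mapped fragments of the library. Read totals were not given, and relative depth, read from the width of the authors' bounds, ran from 0.566 in library control 2 to 1 in library iron 2, with libraries named by group and replicate. The iron treatment showed in the labelled direction: the iron-shortage regulator BHLH39 stood at 346 to 402 FPKM in the 4 libraries without iron and at 0.118 to 0.338 FPKM in the 4 with iron. RNA composition moved with iron supply. The 5 mesophyll markers, which include small subunits of Rubisco, summed to 24883 to 30665 FPKM in iron deficiency and 25673 to 28556 FPKM in double deficiency, against 50954 to 53861 FPKM in copper deficiency and 52058 to 54075 FPKM in controls. The largest drop was in CAB1, which averaged 7552 FPKM in iron deficiency against 23100 FPKM in controls, while RBCS1A averaged 12586 FPKM against 17727 FPKM. At a limma adjusted p under 0.05, 3 of the 5 (60%) fell in iron deficiency and 4 (80%) in double deficiency against control. The shares of all tested genes were 6.85% and 5.99%. The 4 dividing-cell markers summed to 47.6 to 54.9 FPKM in iron and 56.7 to 66.8 FPKM in double deficiency, against 6.21 to 24.5 FPKM in copper deficiency and 6.22 to 8.04 FPKM in controls. Phloem markers (6) summed to 226 to 270 FPKM in iron and 225 to 226 FPKM in double deficiency, against 166 to 177 FPKM in copper deficiency and 155 to 168 FPKM in controls. In double deficiency the members diverged: SWEET11 averaged 106 FPKM against 22.5 FPKM in controls, and SUC2 35.5 FPKM against 67.7 FPKM. At a limma adjusted p under 0.05, 3 of the 6 rose and 1 fell there against control. These are 50% and 16.7%, beside 39.2% and 5.99% of all tested genes. In iron deficiency 4 rose and 0 fell, or 66.7% rising beside 27.2%. Epidermis markers (4) summed to 280 to 304 FPKM without iron and 175 to 239 FPKM with iron, and guard cell markers (5) to 1051 to 1599 FPKM without iron and 1607 to 2140 FPKM with iron. The guard cell sums were mostly TGG1. It averaged 1468 FPKM in iron and 1030 FPKM in double deficiency, against 2070 FPKM in copper deficiency and 1660 FPKM in controls. By the same limma threshold, 2 of the 5 guard cell markers rose and 0 fell in iron deficiency against control. In double deficiency against control 2 rose and 1 fell, so these sums do not describe the list as a whole. Root markers (6) summed to 27.99 to 42.0 FPKM in iron and 32.0 to 51.3 FPKM in double deficiency, against 8.60 to 14.5 FPKM in copper deficiency and 15.3 to 28.8 FPKM in controls. Of these 6, PYK10 and SHR reached 1 FPKM in each group, and SHR rose in iron deficiency (adjusted p = 0.0170). The root hair gene EXPA7 was listed at 0 in every library. COBL9 averaged 0.482 FPKM in iron and 0.165 FPKM in double deficiency, against 0.0404 FPKM in copper deficiency and 0.0436 FPKM in controls. PRP3 averaged 0.242, 0.0632, 0.0838 and 0.0170 FPKM in these groups in turn. CASP1 went the other way, at 0 FPKM without iron and an average of 0.427 FPKM in controls. COBL9, PRP3 and CASP1 stayed below 1 FPKM and were not tested. The part of these shifts in the results was not tested, and in whole leaves fewer cells of a type and less RNA per cell cannot be told apart.

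The bases before 4 genes are shown because they hold, or lack, the sequence that PHR1 is known to bind. The motif searched was GNATATNC, which reads the same on both strands. It was present within 250 bases before the gene start in 5.46% of 27443 protein-coding genes and within 1000 bases in 20.3%. Of the 10 genes, 2 had it within 250 bases (SPX3 and MGD2) and 4 within 1000 bases, with SPX1 and SQD2 added. Sequences are from RefSeq (TAIR10.1), 5′ to 3′ toward the gene, with motif matches in capitals. SPX3 (chr2:18606160-18606409, plus strand) had 2 matches, 213 and 90 bases before the start, and MGD2 (chr5:6896351-6896462, plus strand) had 1 at 14 bases in a window that ended at its neighbour AT5G20400. SQD1 (chr4:15935123-15935372, plus strand) had none, and AT4 (chr5:894332-894581, plus strand), a non-coding RNA gene described further on, had 1 at 26 bases.
SPX3: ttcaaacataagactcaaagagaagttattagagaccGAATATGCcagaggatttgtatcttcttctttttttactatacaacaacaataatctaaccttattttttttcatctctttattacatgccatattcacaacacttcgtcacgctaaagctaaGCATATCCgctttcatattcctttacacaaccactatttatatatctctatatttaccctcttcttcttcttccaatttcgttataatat
MGD2: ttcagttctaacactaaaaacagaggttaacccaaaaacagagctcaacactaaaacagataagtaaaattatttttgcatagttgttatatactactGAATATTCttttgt
SQD1: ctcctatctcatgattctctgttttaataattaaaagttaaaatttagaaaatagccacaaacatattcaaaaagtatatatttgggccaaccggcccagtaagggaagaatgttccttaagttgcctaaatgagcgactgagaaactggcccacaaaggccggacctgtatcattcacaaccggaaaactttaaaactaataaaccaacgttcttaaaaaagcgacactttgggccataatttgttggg
AT4: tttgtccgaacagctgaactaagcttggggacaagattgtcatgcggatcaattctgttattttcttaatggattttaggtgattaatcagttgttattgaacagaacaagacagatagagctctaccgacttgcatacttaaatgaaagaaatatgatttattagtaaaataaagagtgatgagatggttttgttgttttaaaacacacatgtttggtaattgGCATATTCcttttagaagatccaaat
A match describes these letters only and is not evidence of binding. SPX3 and MGD2 both held the motif, and their transcript levels in the leaves differed: SPX3 was at 0.131 FPKM or lower in every library, and MGD2 was at 1.93 FPKM or higher in every library.

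Of the 10 genes, 8 passed the filter of at least 1 FPKM in at least 2 libraries, and SPX3 and PHT1;4 did not. In iron deficiency 1 of the 8 rose (MGD2) and 1 fell (SQD1), as called by limma at an adjusted p under 0.05 over 19170 genes. In the same comparison 34.1% of all tested genes were called, 27.2% rising and 6.85% falling, so the share of called genes among the 8 was not above the background. In double deficiency against control the same 2 genes were called in the same directions, with 45.1% of all genes called, 39.2% rising and 5.99% falling. In double deficiency against copper deficiency, a comparison that shares no library with iron deficiency against control, 3 of the 8 were called: MGD2 and MGD3 rose and SQD1 fell. There 45.8% of all genes were called, 39.4% rising and 6.4% falling.

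The balance of rising and falling genes across the genome depended on scaling. For iron deficiency 79.88% of the called genes rose (5218 of 6532). It was 49.96% after median-ratio scaling and 89.04% after scaling to the sum of nuclear coding genes. For double deficiency against control 86.73% rose, 51.66% after median-ratio scaling and 90.2% after nuclear-coding scaling. Median-ratio scaling is built to bring the median of all genes near 0 (0.01 and 0.02 here), so it cannot decide whether most genes rose. Under median-ratio scaling, and likewise under quantile normalization, 0 of the 8 genes rose and 1 fell (SQD1) in iron deficiency. In double deficiency 0 rose and 3 fell (SQD1, SQD2 and SPX1), both against control and against copper deficiency. Over all tested genes 14.5% rose and 14.5% fell in iron deficiency after median-ratio scaling. In double deficiency 16.4% rose and 15.35% fell against control, and 16.8% rose and 16.3% fell against copper deficiency. The median log2 difference of all genes was 0.27 for iron deficiency against control, 0.41 for double deficiency against control and 0.41 for double against copper deficiency, and differences of single genes are also given relative to it. The 8 tested genes had medians of 0.17, 0.24 and 0.06 in these 3 comparisons, each lower than the median of all genes.

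**Figure D1:**
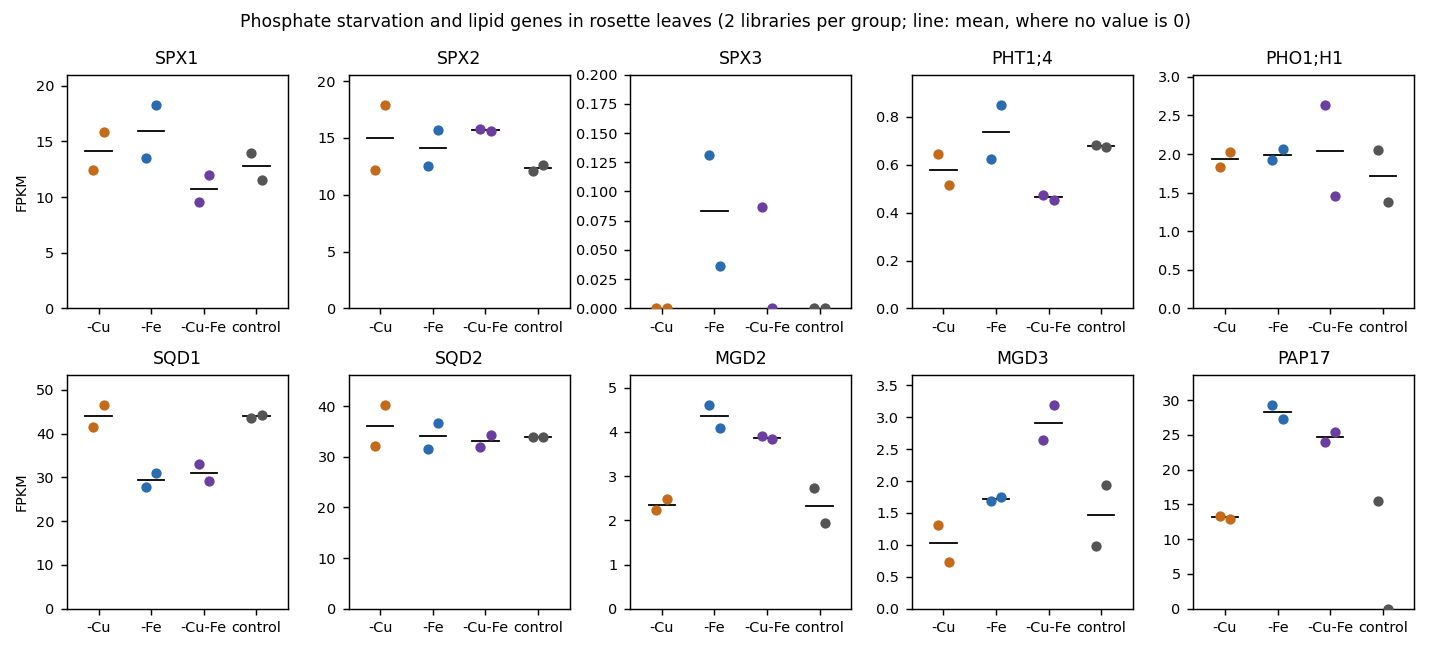
FPKM of the 10 genes in each library, 1 panel per gene with its own vertical axis from 0; points are libraries in the order copper deficiency (-Cu), iron deficiency (-Fe), double deficiency (-Cu-Fe) and control, and lines are means of 2 libraries where neither is listed at 0. SQD1 was at 27.7 to 33.0 FPKM in the 4 libraries without iron and at 41.5 to 46.5 FPKM in the 4 with iron, whereas MGD2 was at 3.84 to 4.60 FPKM without iron and at 1.93 to 2.73 FPKM with it.

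Sulfolipid synthesis was represented by 2 genes at similar levels, of which 1 fell without iron. SQD1 (AT4G33030), on chromosome 4 from 15935373 to 15937833, encodes the plastid enzyme that makes the sulfoquinovose headgroup donor. It stood at 27.7 and 31.0 FPKM in iron deficiency, 33.0 and 29.1 FPKM in double deficiency, 41.5 and 46.5 FPKM in copper deficiency, and 43.7 and 44.3 FPKM in controls. The 4 libraries without iron were all below the 4 with iron. The log2 difference on the log2(FPKM + 1) scale was -0.57 ± 0.11 (SE) for iron deficiency against control (limma adjusted p = 0.0104), or -0.84 relative to all genes. It was -0.49 ± 0.11 for double deficiency against control (adjusted p = 0.0124) and -0.49 ± 0.11 for double against copper deficiency (adjusted p = 0.0125). The fall kept its call under median-ratio, quantile and nuclear-coding scaling. For iron deficiency against control it lost the call without library control 2 (adjusted p = 0.0582). For double deficiency against control it lost the call without control 2 (0.0624) or double 2 (0.0719). Against copper deficiency the call was lost without copper 2 (adjusted p = 0.0531) or double 2 (0.0720).

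SQD2 (AT5G01220), on chromosome 5 from 86543 to 90117, encodes the transferase that completes sulfolipid. Its values were 31.5 and 36.6 FPKM in iron deficiency, 31.9 and 34.3 FPKM in double deficiency, 32.1 and 40.1 FPKM in copper deficiency, and 33.9 and 33.8 FPKM in controls. The groups overlapped, and the log2 difference for iron deficiency against control was 0.01 with a 95% interval of -0.31 to 0.32 (adjusted p = 0.988). This gene depended on scaling in double deficiency. Its log2 difference from control was -0.03 ± 0.13 as deposited (adjusted p = 0.861), -0.47 after median-ratio scaling (adjusted p = 0.0282) and -0.46 after quantile normalization (adjusted p = 0.0212).

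Galactolipid synthesis at the outer plastid envelope was represented by MGD2 and MGD3, the 2 monogalactosyldiacylglycerol synthases that phosphate starvation is known to induce. MGD2 (AT5G20410), on chromosome 5 from 6896463 to 6898783, stood at 4.60 and 4.10 FPKM in iron deficiency, 3.90 and 3.84 FPKM in double deficiency, 2.23 and 2.47 FPKM in copper deficiency, and 2.73 and 1.93 FPKM in controls. All 4 libraries without iron were above the 4 with iron. Its log2 difference was 0.69 ± 0.18 for iron deficiency against control (adjusted p = 0.0258; 0.42 relative to all genes), 0.56 ± 0.18 for double deficiency against control (adjusted p = 0.0408) and 0.54 ± 0.18 for double against copper deficiency (adjusted p = 0.0448). These rises were close to the general shift in double deficiency, at 0.15 and 0.14 relative to all genes. They were not called after median-ratio scaling (adjusted p = 0.0817, 0.361 and 0.394) or after quantile normalization (adjusted p = 0.171, 0.848 and 0.941).

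Leaving out 1 library also removed calls of MGD2. The iron rise was not called without control 2 (adjusted p = 0.1097), iron 1 (0.1016) or iron 2 (0.0745). Against control, the double-deficiency rise stayed called in 1 of 8 such fits, and against copper deficiency in 2 of 8.

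MGD3 (AT2G11810), on chromosome 2 from 4743162 to 4746813, was highest in the doubly deficient leaves. It stood at 1.69 and 1.75 FPKM in iron deficiency, 2.64 and 3.18 FPKM in double deficiency, 1.31 and 0.739 FPKM in copper deficiency, and 0.984 and 1.94 FPKM in controls. Both doubly deficient libraries lay above the other 6, while the iron-deficient values lay within the range of the controls. The rise in double against copper deficiency was 0.96 ± 0.26 (95% interval 0.32 to 1.60, adjusted p = 0.0261), or 0.55 relative to all genes. Against control the difference was 0.69 ± 0.26 (adjusted p = 0.0734) in double and 0.17 ± 0.26 (adjusted p = 0.650) in iron deficiency, where it turned to -0.01 under median-ratio scaling, -0.16 under quantile normalization and -0.11 without control 1. The difference between double and iron deficiency was 0.52 with an interval of -0.11 to 1.16 (adjusted p = 0.323), so the step from iron to double deficiency was not called. The rise against copper deficiency was not called after median-ratio scaling (0.67, adjusted p = 0.124) or quantile normalization (0.42, adjusted p = 0.339). It was also lost without copper 2 (adjusted p = 0.1061), double 1 (0.0731) or double 2 (0.1096). The authors' bounds imply 6.6 to 37.5 fragments per library for MGD3 and 21.1 to 61.9 for MGD2, against 374 to 675 for SQD1, so the galactolipid values are the less precise.

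**Figure D2:**
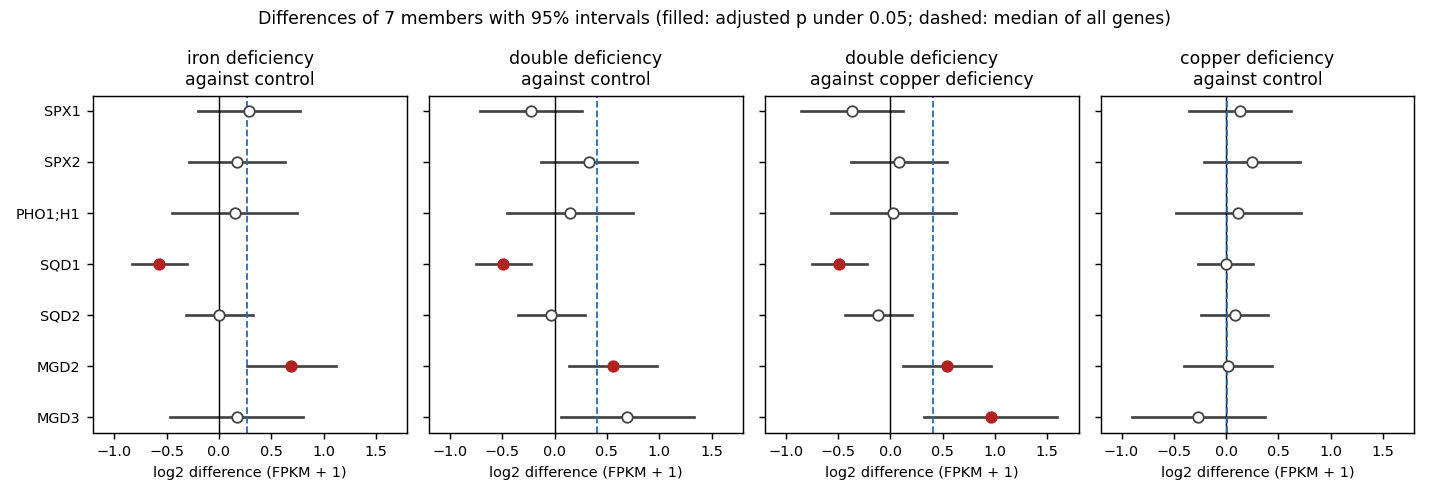
Log2 differences of FPKM + 1 (horizontal axis) for 7 of the 8 tested genes in 4 comparisons, with 95% intervals from limma; filled points have an adjusted p under 0.05 and the dashed line is the median of all genes. SQD1 lay below 0 and MGD2 above it in the 3 comparisons that differ in iron, and all 7 intervals include 0 for copper deficiency against control; PAP17 is not drawn because 1 control library is listed at 0.

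PAP17 (AT3G17790), on chromosome 3 from 6089381 to 6091231, encodes a purple acid phosphatase that releases phosphate from organic esters and is known to respond to phosphate starvation and senescence. It stood at 29.2 and 27.2 FPKM in iron deficiency, 23.9 and 25.4 FPKM in double deficiency, 13.4 and 12.9 FPKM in copper deficiency, and 15.5 and 0 FPKM in controls. The 4 libraries without iron were all above the 4 with iron. The 0 in library control 2 stands with bounds of 0 and may be a failed estimate: 7 nuclear coding genes were listed at 0 in that library while at 5 FPKM or more in all others, and each other library had 1 to 11 such genes. With this 0 in the fit PAP17 was not called (log2 2.85 ± 1.14, adjusted p = 0.101 for iron deficiency against control; 0.86 ± 1.14, adjusted p = 0.568 for double against copper deficiency).

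With such single zeros treated as missing, a setting chosen after the data were seen, the fit dropped library control 2 for PAP17. The log2 difference was then 0.82 ± 0.12 for iron deficiency (adjusted p = 0.00632) and 0.64 ± 0.12 for double deficiency against the 1 remaining control (adjusted p = 0.00989), which is assumed to vary like the other groups. For double against copper deficiency, which uses no control, it was 0.86 ± 0.10 (adjusted p = 0.00197), and a fit of those 2 groups alone gave an adjusted p of 0.0122. With single zeros as missing, the median of all genes was 0.27, 0.41 and 0.40 in these comparisons in turn. That setting was not combined with another scaling, so whether these PAP17 calls depend on scaling was not tested. Without control 1 instead, only the 0 was left for the controls, and no difference from control can be read from that fit.

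The 3′ end of PAP17 shares 122 bases with AT3G17800 on the opposite strand, and the libraries were unstranded. AT3G17800 stood at 169 and 178 FPKM in iron deficiency, 158 and 183 FPKM in double deficiency, 98.3 and 110.2 FPKM in copper deficiency, and 108 and 107 FPKM in controls. It was thus higher in the same 4 libraries as PAP17, and reads from the shared bases cannot be told apart. The 6 senescence markers summed to 135 to 147 FPKM in iron and 146 to 161 FPKM in double deficiency, against 63.8 to 74.0 FPKM in copper deficiency and 57.6 to 98.4 FPKM in controls, with the late marker SAG12 under 0.1 FPKM in every library. The members of that list moved in different directions. SWEET15, a sugar exporter, stood at 73.7 and 60.2 FPKM in iron and 61.0 and 63.5 FPKM in double deficiency, against 1.74 and 2.02 FPKM in controls. The senescence regulator NAP fell, at 2.71 and 2.68 FPKM in iron and 2.52 and 2.57 FPKM in double deficiency, against 10.4 and 6.97 FPKM in controls (adjusted p = 0.00702 and 0.00415). ORE1, another senescence regulator, fell in double deficiency (log2 -1.17, adjusted p = 0.0150). Their part in the PAP17 values was not tested.

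**Figure D3:**
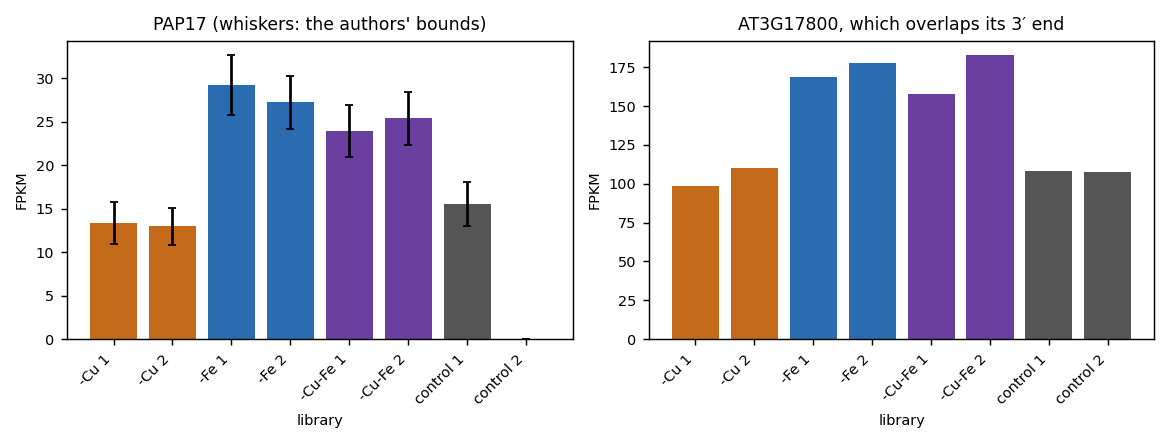
FPKM (vertical axes, from 0) of PAP17 on the left and of AT3G17800, which shares 122 bases with it, on the right, 1 bar per library; whiskers on PAP17 are the authors' deposited bounds. PAP17 was at 23.9 to 29.2 FPKM in the 4 libraries without iron and at 12.9 to 15.5 FPKM in 3 of those with iron, the other being listed at 0, and AT3G17800 was at 158 to 183 FPKM without iron and at 98.3 to 110.2 FPKM with it.

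The SPX regulators bind PHR1 and are themselves among its targets. SPX1 and SPX2 were not called in any of the 6 comparisons as reported, and SPX3 was too low to test. SPX1 (AT5G20150), on chromosome 5 from 6802282 to 6803655, stood at 13.5 and 18.3 FPKM in iron deficiency, 9.54 and 11.9 FPKM in double deficiency, 12.5 and 15.8 FPKM in copper deficiency, and 13.9 and 11.6 FPKM in controls. The doubly deficient pair overlapped the controls and lay below both iron-deficient libraries. For double against iron deficiency the log2 difference of SPX1 was -0.52 ± 0.20 (limma unadjusted p = 0.0405, adjusted p = 0.222). Its differences from control were 0.29 ± 0.20 in iron deficiency (95% interval -0.20 to 0.78, adjusted p = 0.312) and -0.23 ± 0.20 in double deficiency (adjusted p = 0.387), and the interaction, the double difference less the sum of both single ones, was -0.65 ± 0.29 (adjusted p = 0.386). After median-ratio scaling SPX1 was called as falling in double deficiency, by 0.64 on the log2 scale against control (adjusted p = 0.0374) and by 0.78 against copper deficiency (adjusted p = 0.0193), and after quantile normalization by 0.74 (0.0221) and 0.86 (0.0126).

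SPX2 (AT2G26660), on chromosome 2 from 11338752 to 11340950, stood at 12.5 and 15.7 FPKM in iron deficiency, 15.8 and 15.6 FPKM in double deficiency, 12.2 and 17.9 FPKM in copper deficiency, and 12.0 and 12.6 FPKM in controls. The copper-deficient libraries spanned both other deficiency groups and 1 control. The difference from control was 0.17 with an interval of -0.29 to 0.63 in iron deficiency (adjusted p = 0.522) and 0.33 ± 0.19 in double deficiency (adjusted p = 0.207). A fit of the doubly deficient and control groups alone called SPX2 as rising (adjusted p = 0.0499). SPX3 (AT2G45130), on chromosome 2 from 18606410 to 18607853, was listed at 0.131 and 0.0359 FPKM in iron deficiency, 0.0871 and 0 FPKM in double deficiency, and 0 in both copper-deficient and both control libraries. These values correspond to 0.5 implied fragments at most, too few to compare groups, and no fold is given.

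Both transporter genes were low in all groups. PHT1;4 (AT2G38940), on chromosome 2 from 16257157 to 16260253, encodes a plasma membrane phosphate importer known mainly from roots. It stood at 0.625 and 0.849 FPKM in iron deficiency, 0.474 and 0.453 FPKM in double deficiency, 0.645 and 0.514 FPKM in copper deficiency, and 0.681 and 0.674 FPKM in controls. Both doubly deficient values were below the other 6, at 5.7 to 13.5 implied fragments per library over all groups, and the gene was below the filter, so this was not tested. PHO1;H1 (AT1G68740), on chromosome 1 from 25812449 to 25816983, encodes a relative of the phosphate exporter PHO1 of the vascular tissue. Its values of 1.93 and 2.06 FPKM in iron deficiency, 2.64 and 1.46 FPKM in double deficiency, 1.84 and 2.02 FPKM in copper deficiency, and 2.06 and 1.38 FPKM in controls overlapped in all groups. The iron difference was 0.15 with an interval of -0.45 to 0.75 (adjusted p = 0.678).

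Copper deficiency alone left all 8 tested genes uncalled by limma against control, with 0 of 8 also at an unadjusted p under 0.05 and 0.183% of all genes called. Apart from PAP17, where the zero in control 2 enters, the differences ran from -0.27 for MGD3 to 0.24 for SPX2. The 95% interval against control was -0.27 to 0.26 for SQD1 and -0.41 to 0.44 for MGD2. Adding copper deficiency to iron deficiency called 0 of 8 genes (1 at an unadjusted p under 0.05, SPX1), with 1.14% of all genes called. The interaction called 0 of 8 (0 at an unadjusted p under 0.05), with 0.589% of all genes called.

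Set side by side, the 2 comparisons that share no library gave the same sign in 6 of 8 genes, or 75%, against 80.23% of all tested genes. The 8 genes were thus no more alike in sign than genes in general. Of the 8, 2 lay higher (MGD2 and PAP17) and 1 lower (SQD1) in all 4 libraries without iron than in all 4 with iron, and 5 overlapped. Over all tested genes 47.8% did not overlap in this way, 39.8% being higher and 8% lower.

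**Figure D4:**
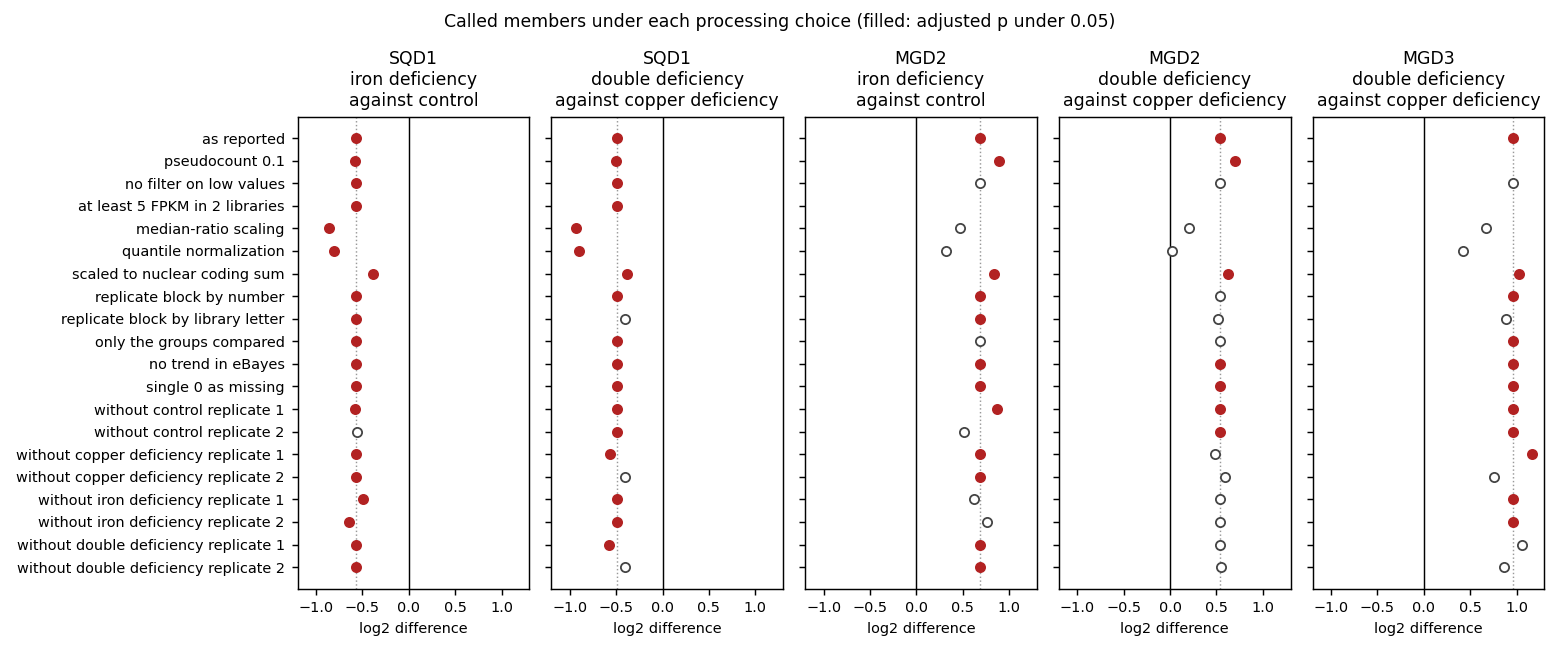
Log2 differences (horizontal axes) under each way of processing, 1 row per setting, of SQD1 and MGD2 for iron deficiency against control and double against copper deficiency, and of MGD3 for double against copper deficiency; filled points have an adjusted p under 0.05 and the dotted line marks the value as reported. In these 5 panels SQD1 stayed below 0 and MGD2 and MGD3 above it in every row, while the open points show where a call was lost, among them median-ratio scaling and quantile normalization for MGD2 and MGD3; the low-expressed galactolipid genes have no point at a filter of 5 FPKM.

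For the called genes, the 2 most similar patterns among 16804 nuclear coding genes are given as a description. Pearson's r of log2(FPKM + 1) over the 8 libraries, which form 2 clusters by iron supply, was 0.997 between SQD1 and the metallothionein gene MT2B and 0.989 between SQD1 and AT4G24550. For MGD2 it was 0.999 with the callose synthase gene GSL11 and 0.993 with the calcium pump gene ECA1. For MGD3 it was 0.987 with the proteasome gene RPN12a and 0.98 with AT5G09840.

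A wider set of 87 phosphate genes, outside the 10, placed these values. Of these 52 were tested: 15 rose and 0 fell in iron deficiency, 20 rose and 1 fell in double deficiency against control, and 21 rose and 2 fell in double against copper deficiency. Their medians were 0.27, 0.44 and 0.43, or 0.003, 0.03 and 0.02 relative to all genes. The shares that rose, 28.8%, 38.5% and 40.4%, were close to the 27.2%, 39.2% and 39.4% of all tested genes. After median-ratio scaling 9 of the 52 rose and 4 fell in iron deficiency, and 9 rose and 7 fell in double deficiency against control. Over all tested genes 14.5% rose and 14.5% fell in iron deficiency after this scaling. In double deficiency against control 16.4% rose and 15.35% fell. The split in direction thus also moved with the scaling, though more of the set still rose than fell.

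Among 18 tested signalling genes, 7 rose and 0 fell in iron deficiency and 9 rose and 0 fell in double deficiency against control. These are 38.9% and 50% rising, beside 27.2% and 39.2% of all genes. AT4 (AT5G03545), a non-coding RNA that mimics the target of the phosphate-starvation microRNA miR399, stood at 7.62 and 7.15 FPKM in iron deficiency, 6.25 and 6.59 FPKM in double deficiency, 1.43 and 1.01 FPKM in copper deficiency, and 1.07 and 0.851 FPKM in controls. Every library without iron was above every library with iron. Its log2 difference was 2.1 ± 0.17 in iron deficiency (adjusted p = 0.000561) and 1.92 ± 0.17 in double deficiency against control (adjusted p = 0.000508), and both calls held in all 19 alternatives. The related mimic IPS1, a widely used marker of phosphate starvation, was at 0.515 FPKM or lower in all 8 libraries and was not tested.

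PHO2, the ubiquitin conjugase that miR399 represses, stood at 52.4 and 56.4 FPKM in iron deficiency and 49.0 and 41.2 FPKM in double deficiency, against 28.4 and 30.0 FPKM in copper deficiency and 28.4 and 20.6 FPKM in controls. Its log2 difference from control was 1.14 ± 0.17 in iron deficiency (adjusted p = 0.00430), called in all 19 alternatives, and 0.87 ± 0.17 in double deficiency (adjusted p = 0.00729). SPX4, a further SPX regulator, stood at 5.23 and 5.31 FPKM in iron deficiency and 7.97 and 4.83 FPKM in double deficiency, against 2.31 and 2.32 FPKM in controls. It rose by 0.92 ± 0.22 on the log2 scale in iron deficiency (adjusted p = 0.0227) and by 1.13 ± 0.22 in double deficiency (adjusted p = 0.00841). The call in iron deficiency held in 13 of 19 alternatives and that in double deficiency in 18. PHR1 itself stood at 27.1 and 34.6 FPKM in iron deficiency, 34.4 and 37.1 FPKM in double deficiency, 28.2 and 31.2 FPKM in copper deficiency, and 29.0 and 25.4 FPKM in controls, and was not called (0.17 ± 0.14, adjusted p = 0.403 in iron; 0.38 ± 0.14, adjusted p = 0.0684 in double deficiency).

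ZAT6, a zinc finger regulator of phosphate homeostasis and root growth, was the 1 gene of the 52 called in double against iron deficiency and in the interaction. This is 1.92% of the 52 in each, beside 1.14% and 0.589% of all tested genes. It stood at 8.94 and 8.16 FPKM in double deficiency, against 2.44 and 2.67 FPKM in iron deficiency, 2.12 and 2.48 FPKM in copper deficiency, and 3.04 and 2.84 FPKM in controls. The doubly deficient pair lay apart from the other 6 libraries. The log2 difference was 1.43 ± 0.15 against iron deficiency (adjusted p = 0.0127), and the interaction was 1.68 ± 0.21 (adjusted p = 0.0321). Neither call was examined under the alternatives.

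In the transport list 15 of 26 genes were tested, with 3 rising and 0 falling in iron deficiency and 5 rising and 0 falling in double deficiency against control. The rising shares, 20% and 33.3%, were below the 27.2% and 39.2% of all genes. PHO1;H3, another relative of PHO1, stood at 2.03 and 2.47 FPKM in iron deficiency and 3.16 and 2.90 FPKM in double deficiency, against 0.733 and 0.530 FPKM in controls (0.99 ± 0.24, adjusted p = 0.0219; 1.31 ± 0.24, adjusted p = 0.00629). The plastid transporter PHT4;5 stood at 38.0 and 38.2 FPKM in iron deficiency and 35.5 and 38.4 FPKM in double deficiency, against 22.8 and 22.6 FPKM in controls (0.73 ± 0.10, adjusted p = 0.00377; 0.68 ± 0.10, adjusted p = 0.00297). The glycerol-3-phosphate permease gene G3Pp1 also rose in both (0.49 ± 0.10, adjusted p = 0.0122; 0.67 ± 0.10, adjusted p = 0.00290), and the Golgi transporter gene PHT4;6 in double deficiency (0.56 ± 0.17, adjusted p = 0.0371), a call that held in 8 of 19 alternatives. The iron call of PHT4;5 held in all 19 alternatives, that of PHO1;H3 in 12 of 18 and that of G3Pp1 in 15 of 19. Under median-ratio scaling G3Pp1 was not called in iron deficiency (adjusted p = 0.0734). In double deficiency the call of PHT4;5 held in 17 of 19, that of PHO1;H3 in 18 of 18 and that of G3Pp1 in 19 of 19. PHT4;5 lost it under median-ratio scaling (adjusted p = 0.136) and quantile normalization (0.135). The vacuolar transporter gene PHT5;3 was the 1 transporter that fell in double against copper deficiency, at 11.2 and 12.4 FPKM against 15.3 and 15.6 FPKM (-0.36 ± 0.11, adjusted p = 0.0321), and it is named because of that value.

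In the lipid list, which holds further steps of the exchange of phospholipids for galactolipids, 11 of 15 genes were tested, and 3 rose (27.3%, beside 27.2% of all genes) and 0 fell in iron deficiency. PAH2 and PAH1, phosphatidate phosphohydrolases that supply diacylglycerol, rose by 0.60 ± 0.15 (adjusted p = 0.0235) and 0.59 ± 0.18 (adjusted p = 0.0475). These calls held in 12 and 5 of 19 alternatives, and neither under median-ratio scaling (adjusted p = 0.122 and 0.151). In double deficiency against control 3 rose (27.3%, beside 39.2% of all genes) and 1 fell. DGD2, which adds a further galactose to the product of MGD2 and MGD3, stood at 6.58 and 8.60 FPKM in iron deficiency and 9.54 and 8.12 FPKM in double deficiency, against 5.85 and 5.42 FPKM in controls. It rose in double deficiency (0.56 ± 0.17, adjusted p = 0.0348), in 10 of 19 alternatives. The phosphodiesterase gene GDPD6, the 1 that fell, was listed at 0 in both doubly deficient libraries, against 1.92 and 2.29 FPKM in controls, and stood at 1.26 and 0.621 FPKM in iron deficiency. Its locus overlaps that of AT5G08020, so its reads are less sure.

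Of 18 phosphatase and phosphate-release genes 8 were tested, and 2 rose (25%, beside 27.2% of all genes) and 0 fell in iron deficiency. PPsPase1, a phosphatase that cleaves pyrophosphate, stood at 1.87 and 1.97 FPKM in iron deficiency and 1.86 and 1.48 FPKM in double deficiency, against 0.505 and 0.160 FPKM in controls. Its log2 differences were 1.14 ± 0.24 (adjusted p = 0.0145) and 1.01 ± 0.24 (adjusted p = 0.0165). PAP26, a major leaf acid phosphatase, stood at 80.3 and 84.8 FPKM in iron deficiency and 87.2 and 91.7 FPKM in double deficiency, against 69.3 and 69.1 FPKM in controls (0.25 ± 0.08, adjusted p = 0.0483; 0.36 ± 0.08, adjusted p = 0.0106). These differences lay below the all-gene medians of 0.27 and 0.41, and after median-ratio scaling they turned to -0.04 and -0.08. The calls of PAP26 held in 5 and 15 of 19 alternatives. PAP12, a secreted phosphatase, rose in double deficiency (0.56 ± 0.15, adjusted p = 0.0224), not after median-ratio scaling (adjusted p = 0.520). The 7 microRNA genes of phosphate starvation were listed at 0 in all libraries of the iron, copper and control groups, and 0 of 7 could be tested.

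**Figure D5:**
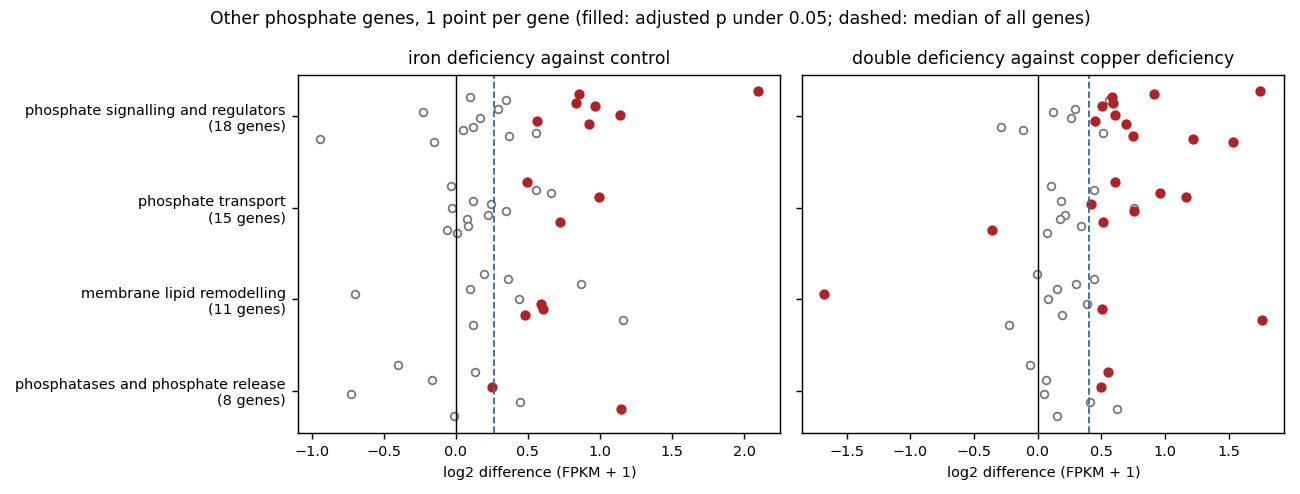
Log2 differences of FPKM + 1 (horizontal axis) of 52 tested phosphate genes outside the 10, 1 point per gene, by list, for iron deficiency against control and for double against copper deficiency, which share no library; filled points have an adjusted p under 0.05 and the dashed line is the median of all genes. The points of each list lie on both sides of the dashed line, and AT4 is the highest point for iron deficiency, at 2.1.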

How the data were processed

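Rosette leaf RNA of 8 libraries in 4 groups was sequenced from unstranded libraries, per the labels' protocols. Trimmomatic, Cufflinks, Cuffdiff and TopHat2 2.1.1 are listed in the submitters' processing notes. The sources used here do not give the genome build. The authors deposited FPKM per gene and library together with bounds for each value, and name no step that scales libraries to each other. Of the identifiers, 99.2% were found in the RefSeq table (TAIR10.1), of which 99.9% had the same start and end, and 1 row with a failed estimate was left out. Coordinates are those of the files with 1 added to the start.

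Log2(FPKM + 1) of genes with at least 1 FPKM in 2 libraries was fitted with limma 3.58.1 in R 4.3.3 (lmFit, eBayes with a trend, 4 residual degrees of freedom), in 1 model of the 4 groups, with Benjamini-Hochberg adjustment over all 19170 genes. Where a gene has an adjusted p under 0.05 it is called. The fit was tested on simulated data. Depth is known in relative terms only, from the deposited bounds under a Poisson model, which covers counting error only. Same-numbered libraries showed no shared deviation, with correlations of -0.039 to 0.024 over 6 pairs of groups. This cannot tell whether libraries were grown or prepared together. Copper deficiency replicates also carry other library letters than the same-numbered replicates of the other groups.

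The genes, lists and tests were chosen with earlier results of these data known. Named genes of the wider lists were the called genes with the largest change that moved alike in both libraries, up to 4 per list, with PHR1, PHO2, IPS1 and SPX4 added whatever their values. Alternatives were other pseudocounts, filters, scalings and models, and each library left out.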

Additional observations from a re-analysis of the deposited data

How the results depend on the processing

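Of the 7 called differences among the 10 genes, 0 reversed over 129 alternatives, 84 stayed called and 45 did not. Of 41 uncalled differences, 22 of 757 alternatives made a call, 12 of them for PAP17, and 68 changed sign without a call, at sizes up to 0.48 on the log2 scale. The number of called genes in iron deficiency against control, 2, was 1 without a filter on low values, at a minimum of 5 FPKM, under median-ratio scaling, under quantile normalization and with only the groups compared, and ran from 1 to 3 as each library was left out. In double deficiency against control, 2, it was 1 without a filter and at 5 FPKM, and ran from 0 to 3 as libraries were left out. In double against copper deficiency, 3, it was 1 without a filter and 1 at 5 FPKM, and ran from 0 to 4 as libraries were left out. For copper deficiency and the interaction, 0, it ran from 0 to 1, the 1 being PAP17 without control 1, and for double against iron deficiency it was 0 throughout. The counts that were higher with a library left out gained PAP17. A minimum of 5 FPKM removes MGD2 and MGD3 from the test. Shares of all tested genes moved too. Without a filter 12.43% rose and 3.11% fell in iron deficiency, and 33.31% and 8.715% at 5 FPKM. These were 13.83% and 14.05% under quantile normalization, and 18.6% and 4.81% with only the groups compared. Without a filter 18.82% rose and 2.83% fell in double deficiency against control, and 18.95% and 2.92% against copper deficiency. Leaving out a library of a compared group lowered the number of all genes called in each.

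With replicate number as a block, 1 of the 2 calls in double deficiency against control was left, and 1 with library letter as a block; against copper deficiency the letter block left 0 of 3. Same-numbered libraries showed no shared deviation, and the number block left the log2 differences as they were. Against copper deficiency the letter block gave -0.41 for SQD1, 0.51 for MGD2 and 0.89 for MGD3, against -0.49, 0.54 and 0.96 as reported.

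Of the wider set, 15 genes called in iron deficiency became 23 under scaling to the nuclear coding sum, and 6 to 16 as libraries were left out (6 without control 2, 9 without iron 1, 7 without iron 2). For double deficiency against control, 21 became 11 to 23 (13 without control 2, 11 without double 1, 13 without double 2). Over all tested genes 27.2% rose and 6.85% fell in iron deficiency as reported. Under scaling to the nuclear coding sum these shares were 41.13% and 5.06%. Leaving out a library of a compared group lowered the number of all genes called too, so such swings were not limited to the phosphate genes. PAP26 reversed under median-ratio scaling, to -0.0449 and -0.0837, from differences of 0.25 and 0.36 that lay below the all-gene medians of 0.27 and 0.41. The cause was not tested. MGD2, MGD3 and PHT1;4 rest on few fragments, which limits their precision.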

Other observations

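MicroRNA genes of phosphate starvation had values above 0 in single libraries only. MIR399B was listed at 345 FPKM in library double 1, and MIR399D, MIR399E and MIR399F at 482, 364 and 756 FPKM in library double 2. MIR827A was listed at 8.73 FPKM in double 2. Each of these 5 was at 0 in the other 7 libraries, and MIR399A and MIR399C were at 0 in all 8. The authors' bounds imply 0.3 fragments or fewer for each value, so these levels rest on almost no reads and no comparison is made.

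PLDZ2, a phospholipase D of the lipid exchange and named here after its values were seen, stood at 3.08 and 2.50 FPKM in iron deficiency and 2.11 and 2.72 FPKM in double deficiency. It was listed at 0 in both copper-deficient libraries and at 1.87 and 0 FPKM in controls. It was not called by limma in iron deficiency (log2 1.16 ± 0.47, adjusted p = 0.107) or in double deficiency against control (adjusted p = 0.130).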
